A study of Mus musculus with 6 samples.

Results

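The cytochrome P450 genes were examined in MPC, a mouse gastric adenocarcinoma line, and in MPC-PTX, the paclitaxel (PTX)-resistant line raised from it. Members were the rows of the deposited count table whose name is Cyp, a family number, 1 subfamily letter and a gene number, such as Cyp3a13. Pseudogenes named -ps, Cyp51 and Cyp7a1 were left out, and so were 6 names of another form (Cyp2ab1, Cyp3a41a, Cyp3a41b, Cyp4a12a, Cyp4a12b and Cyp4a30b). The rule reads names alone and took 93 of the 21959 genes. The Cyp2c genes (15 members) and the Cyp3a genes (7 members) are treated first among them, since their human counterparts oxidize PTX.

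P450 enzymes are heme proteins that insert an atom of molecular oxygen into lipophilic substrates. Those on the endoplasmic reticulum take their electrons from Por, the P450 reductase, whereas the mitochondrial ones take them from Fdxr by way of Fdx1. Families 1 to 3 mostly clear drugs and other foreign compounds and are most abundant in liver and small intestine, where nuclear receptors and the aryl hydrocarbon receptor (AHR) control their genes. Family 4 hydroxylates fatty acids and eicosanoids, and the remaining families make or degrade sterols, bile acids, steroids, retinoic acid and vitamin D.

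Both lines carry the genotype CDH1-/-;Trp53-/- and were sequenced as 3 libraries each. They go back to gastric organoids of C57BL/6J mice with floxed Trp53 and Cdh1 alleles and a Cre driven by Mist1, recombined in culture and grown as tumours in nude mice. MPC was the untreated control, and MPC-PTX had received PTX for over 30 cycles. Each line was selected as a single clone, so that a difference between these 2 clones and an effect of PTX cannot be told apart. Nothing in the labels ties a replicate to a culture of its own, and p-values then measure only the spread between these libraries, which may be technical. The libraries held 16574580 to 23148182 counts. The coefficient of variation between the libraries of a line, as estimated by edgeR, was 17.9% in MPC and 3.01% in MPC-PTX. The tests fitted the spread of each gene jointly over both lines. The deleted genes were still counted, with 2217 to 3068 counts for Cdh1 and 63 to 142 for Trp53, and counts per gene do not tell which exons were read. The epithelial genes of the gastric list (Krt8, Krt18, Krt19, Epcam and Cldn18) were abundant. The gastric surface and neck products Tff1, Tff2 and Gkn2 were listed at 0 in every library. Gkn1 and Muc5ac had at most 2 counts. Ctse and Anxa10, also on the gastric list, were abundant in MPC and nearly absent in MPC-PTX. Ctse had 4387, 6009 and 5850 counts in the MPC libraries and 30, 29 and 32 in the MPC-PTX libraries. Anxa10 had 1681, 2912 and 3059 counts in the MPC libraries and 10, 4 and 6 in the MPC-PTX libraries. Of that list, 7 of 12 genes passed the filter on low counts and all 7 were lower in MPC-PTX, from a summed level of 7611 to 8718 CPM (counts per 1000000, scaled by TMM) in the MPC libraries to 4191 to 4293 CPM in the MPC-PTX libraries. Markers of hepatocytes, the main P450-bearing cells of the body, were mostly near the floor, with Alb at 1 count in all libraries together, Fgb and Serpina1a at 0 and a summed level of 8 genes of at most 3.14 CPM. Apoh, with 211 counts in all libraries together, held most of that sum and did not pass the test. Ttr had 2, 13 and 11 counts in the MPC libraries and 1, 0 and 0 in the MPC-PTX libraries. Of 8 fibroblast markers, 2 were tested and Col1a1 was lower in MPC-PTX, with sums of 9.83 to 10.9 CPM in MPC and 8.63 to 9.92 CPM in MPC-PTX. Leukocyte markers summed to 9.80 to 12.8 CPM, nearly all Cd68, and endothelial markers to at most 4.83 CPM, and none of them passed the test. The part of these markers in the P450 values was not tested.

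Across the family, most members were silent or close to it in both lines. In all 6 libraries together, 46 of the 93 members had no count, and 29 more had 1 to 40 counts and did not pass the filter on low counts. Such a count of 0 over the 3 libraries of a line allows a level of up to 0.0508 CPM in MPC and 0.0481 CPM in MPC-PTX, a limit that covers counting error only. The remaining 18 members were tested between the lines. In MPC they ranged from 179 CPM for Cyp1b1 down to 0.0687 CPM for Cyp27a1. In bulk RNA such as this, fewer cells that express a gene and less RNA per cell cannot be told apart. The plot of CPM by library shows these 18 genes.

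**Figure D1:**
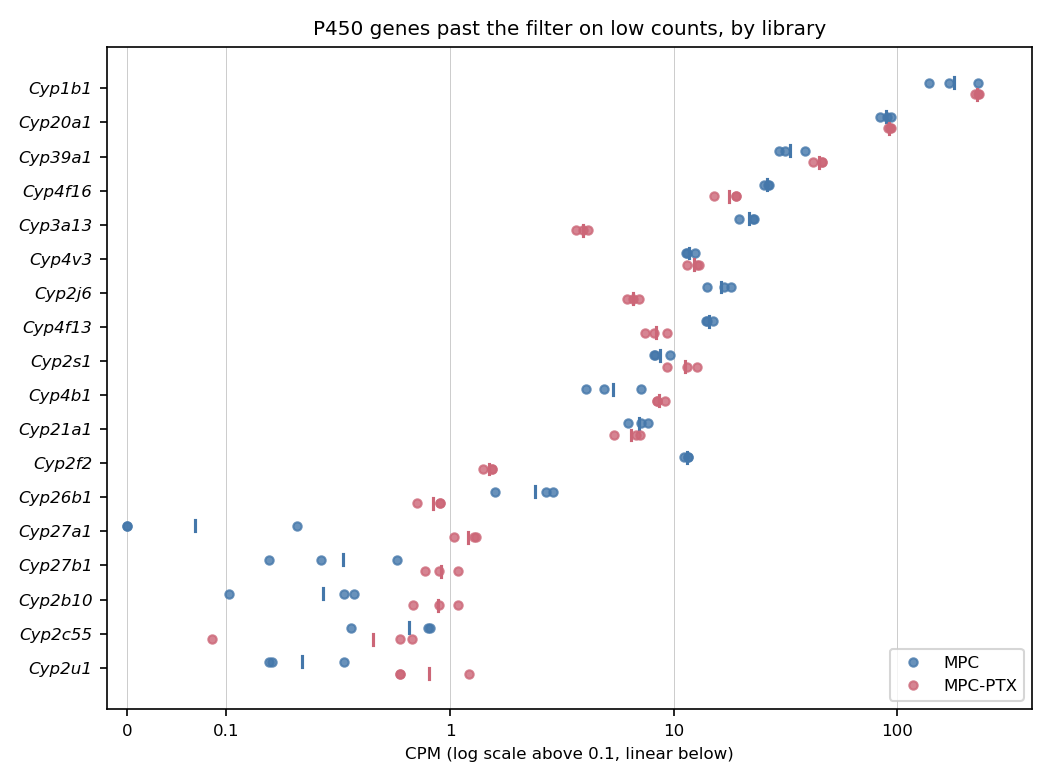
CPM of the 18 tested P450 genes, 1 point per library (blue, MPC; red, MPC-PTX) with the group mean as a tick. The axis is logarithmic above 0.1 CPM and linear below. Cyp3a13 and Cyp2f2 show the widest gaps towards lower values in MPC-PTX, and Cyp27a1 had no count in 2 MPC libraries.

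Of the 18 tested members, 5 were higher and 6 lower in MPC-PTX with an adjusted p below 0.05 (edgeR quasi-likelihood test, adjusted by Benjamini-Hochberg over all 11795 tested genes). Of all tested genes, 14.1% were higher and 15.6% lower by the same rule. The rule of the study's methods was a log2 fold change (LFC, MPC-PTX minus MPC) beyond 1 in either direction with an unadjusted p below 0.05. The study used it with DESeq. Applied here to edgeR's test, it gave 4 members that were higher and 4 lower, against 3.77% and 4.34% of all tested genes. The libraries of the lines did not overlap in CPM for 6 members that were higher and 6 that were lower in MPC-PTX, which was the case for 24.2% and 22.7% of all tested genes (46.9% together). The members had a median LFC of 0.06, beside 0.04 for all tested genes, and a median absolute LFC of 0.74 beside 0.24. These counts describe the members that passed the filter, not the family. Cyp27a1, Cyp2b10 and Cyp2u1 had under 10 counts in each MPC library and passed it through the MPC-PTX libraries alone, and a member that passes in this way had to be higher there. Cyp27b1, with 5, 3 and 12 counts in MPC, also needed the MPC-PTX libraries to pass, which favours a higher value there. These are the 4 members that were higher by the rule of the methods, and all are among the 6 higher ones without overlap. Both counts of higher members thus lean on the filter.

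All 6 lower members kept an adjusted p below 0.05 in each of 15 other fits. Among the higher members only Cyp27a1 did so wherever it could be fitted, and it was the 1 call left when any one MPC-PTX library or MPC replicate 2 was removed. In these fits without a library, the number of calls among all genes fell as well, from 3509 to between 1904 and 2156.

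**Figure D2:**
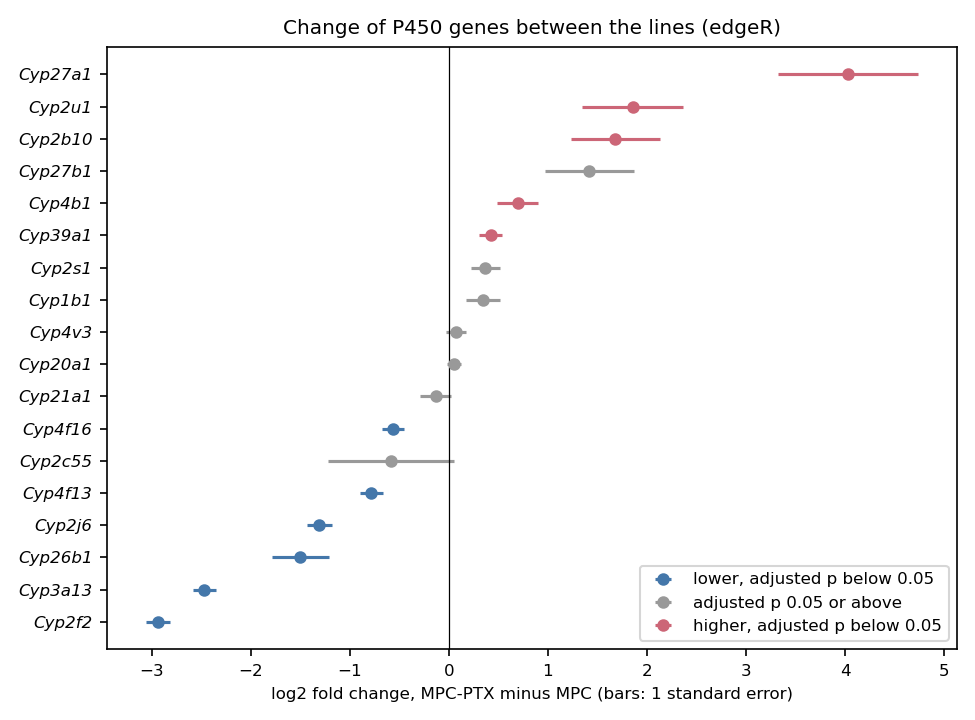
LFC of each tested P450 gene, MPC-PTX minus MPC, with a bar of 1 standard error on each side. Blue genes were lower and red genes higher by the adjusted p of edgeR's test. The values run from -2.93 for Cyp2f2 to 4.03 for Cyp27a1.

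Promoter sequence is shown for the members at the ends of this range, Cyp2f2, Cyp3a13 and Cyp27a1, and for Cyp1b1, the member with the highest counts. Each line gives the 250 bases before the RefSeq start, 5′ to 3′ on the strand of the gene (GRCm38.p6), at chr7:27119705-27119954 (plus strand) for Cyp2f2, chr5:137921620-137921869 (minus) for Cyp3a13, chr1:74713285-74713534 (plus) for Cyp27a1 and chr17:79715062-79715311 (minus) for Cyp1b1. Capitals mark matches to any of 4 motifs searched on both strands.
Cyp2f2: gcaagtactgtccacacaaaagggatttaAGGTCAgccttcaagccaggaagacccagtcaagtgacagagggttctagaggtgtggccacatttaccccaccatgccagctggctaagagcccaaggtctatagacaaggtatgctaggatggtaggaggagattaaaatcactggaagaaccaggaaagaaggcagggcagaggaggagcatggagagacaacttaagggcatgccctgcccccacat
Cyp3a13: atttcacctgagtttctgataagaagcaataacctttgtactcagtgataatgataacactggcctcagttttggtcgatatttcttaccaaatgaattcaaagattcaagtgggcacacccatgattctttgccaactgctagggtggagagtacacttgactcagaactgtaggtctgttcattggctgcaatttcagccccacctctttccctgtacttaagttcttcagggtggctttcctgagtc
Cyp27a1: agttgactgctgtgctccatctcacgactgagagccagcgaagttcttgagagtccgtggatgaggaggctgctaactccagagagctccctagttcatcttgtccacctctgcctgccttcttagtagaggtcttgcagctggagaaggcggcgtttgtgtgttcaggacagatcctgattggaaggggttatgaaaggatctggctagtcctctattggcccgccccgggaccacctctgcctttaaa
Cyp1b1: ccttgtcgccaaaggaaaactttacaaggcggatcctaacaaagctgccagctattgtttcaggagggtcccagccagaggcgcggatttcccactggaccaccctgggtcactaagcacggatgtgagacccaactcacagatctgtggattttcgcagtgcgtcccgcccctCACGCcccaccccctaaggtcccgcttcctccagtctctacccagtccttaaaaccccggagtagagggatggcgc
The motifs were the core of the AHR site (GCGTG), the TATA box (TATAAA), the nuclear receptor half-site (AGGTCA) and an HNF4 site (CAAAGTCCA), which do not contain one another. The Cyp1b1 promoter held 1 AHR core, in reverse as CACGC, and the Cyp2f2 promoter 1 half-site. The other 2 held no match, which says only that these letters are not in this window. The table of promoters had an entry for 15 of the 18 tested members. Of these 15, 5 held the AHR core (Cyp1b1, Cyp20a1, Cyp2b10, Cyp4f16 and Cyp4v3), 2 the TATA box (Cyp26b1 and Cyp2c55), 1 the half-site and 0 the HNF4 site, beside 28.2%, 12.4%, 14.0% and 0.384% of all 32851 promoters of this length. Cyp2f2 and Cyp2c55 had no CpG in this window, and Cyp3a13 and Cyp27b1 had 1, where the median promoter had 6. Cyp4v3 had 17, Cyp20a1 and Cyp2s1 had 15 each and Cyp1b1 had 12.

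Among the 7 Cyp3a genes, Cyp3a13 (chromosome 5 of GRCm38, 137892932 to 137921619) carried all counts in MPC and nearly all in MPC-PTX. It is the Cyp3a gene known in mouse from intestine and other organs outside the liver. Cyp3a13 had 368, 438 and 476 counts in the MPC libraries and 86, 92 and 66 in the MPC-PTX libraries, or 19.6, 22.6 and 22.9 CPM against 3.67, 4.15 and 3.92 CPM. Every MPC library was thus far above every MPC-PTX library. The mean fell from 21.7 ± 1.84 to 3.91 ± 0.237 CPM (SD, n = 3 each), which was 5.53-fold lower (LFC -2.47, standard error (SE) 0.12, adjusted p = 2.24e-05 in edgeR's test). Over the other fits its LFC lay between -2.65 and -2.42. Cyp3a57 had 1 count in each of 2 MPC-PTX libraries, and Cyp3a11, Cyp3a16, Cyp3a25, Cyp3a44 and Cyp3a59 were listed at 0 in all. Cyp3a11 is the major hepatic Cyp3a enzyme of the mouse. As a share of the counts of the 93 members, the Cyp3a genes went from 5.06% to 0.881%, means over the libraries of each line.

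The Cyp2c genes were hardly detected in either line. The 15 members together had 26, 15 and 22 counts in the MPC libraries and 10, 19 and 14 in the MPC-PTX libraries, which is 1.07 ± 0.304 CPM and 0.705 ± 0.241 CPM (SD, n = 3 each). The libraries of the lines overlapped. Cyp2c55 (chromosome 19, 39007019 to 39042693), known from the gut epithelium, was the single member to pass the filter, with 15, 7 and 17 counts in MPC and 2, 15 and 10 in MPC-PTX. Its LFC of -0.59 (SE 0.64, adjusted p = 0.523 in edgeR's test) was within the spread between replicates. From its summed counts alone, the ratio of MPC-PTX to MPC was 0.655, with an exact 95% binomial interval from 0.385 to 1.10. Cyp2c23, an arachidonic acid epoxygenase, had 18 counts in MPC and 14 in MPC-PTX, a ratio of 0.736 (0.339 to 1.57). Cyp2c65 had 7 counts and Cyp2c67 had 1 in all libraries together, and the other 11 members had none. Of the 50-base stretches of the Cyp2c67 transcripts, 52.8% also occurred in another P450 gene, as did 20.2% of those of Cyp2c65, so that such single counts cannot be assigned with certainty. For Cyp2c55, Cyp2c23 and Cyp3a13 this share was 0%.

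**Figure D3:**
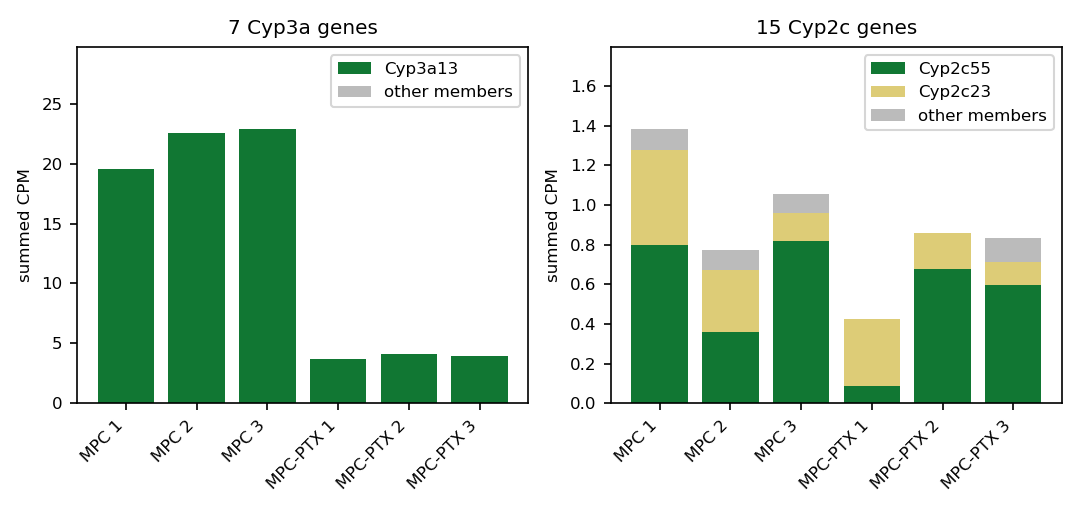
Summed CPM of the 7 Cyp3a genes (left) and the 15 Cyp2c genes (right) in each library, with the members that carry the counts in colour. The Cyp3a bars fall from 19.6 to 22.9 CPM in MPC to about 4 CPM in MPC-PTX and consist of Cyp3a13, and no Cyp2c bar exceeds 1.38 CPM.

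Among the other family 2 genes, 5 were tested, and 2 were lower and 2 higher in MPC-PTX by the adjusted p of edgeR's test. Of all tested genes, 15.6% were lower and 14.1% higher. Both higher genes passed the filter through the MPC-PTX libraries alone. Cyp2f2 (chromosome 7, 27119909 to 27133660), which oxidizes naphthalene in airway club cells, had 210, 225 and 241 counts in MPC and 33, 34 and 26 in MPC-PTX. At 11.4 ± 0.2498 CPM against 1.496 ± 0.0748 CPM (SD, n = 3 each), it was 7.64-fold lower in MPC-PTX (LFC -2.93, SE 0.12, adjusted p = 1.63e-05 in edgeR's test). The spread within each line was small beside this gap. An antisense gene, Gm15883, shares 274 bp of its exons, and since the use of strand in counting is not given in the sources used here, reads of the 2 genes cannot be told apart in that stretch. Cyp2j6 (chromosome 4, 96516138 to 96553661), of a subfamily that epoxidizes arachidonic acid, had 14.1, 16.7 and 18.1 CPM in MPC and 6.19, 6.58 and 7.01 CPM in MPC-PTX. It was 2.47-fold lower (LFC -1.31, SE 0.13, adjusted p = 0.000438), and the other 7 Cyp2j members were listed at 0 in every library.
Cyp2b10 (chromosome 7, 25897620 to 25926624) and Cyp2u1 (chromosome 3, 131288441 to 131303227) went the other way, at low levels. The first, in liver the main target of the receptor CAR, had 7, 2 and 7 counts in MPC and 16, 24 and 15 in MPC-PTX. Its LFC was 1.68 (SE 0.45, adjusted p = 0.0279 in edgeR's test). Its summed counts gave a ratio of 3.25 with a 95% interval from 1.84 to 6.08. Of its 50-base stretches 7.70% also occurred in another P450 gene. Cyp2u1, a fatty acid hydroxylase, had 3, 3 and 7 counts in MPC and 14, 27 and 10 in MPC-PTX, an LFC of 1.86 (SE 0.51, adjusted p = 0.031 in edgeR's test). Here 548 bp of exon are shared with the antisense gene 4930534D22Rik. Both genes passed the filter through the MPC-PTX libraries alone and so had to be higher there. That the lines did not overlap in either gene is thus no support for the rise. Each call was lost in 5 of the other fits, with adjusted p-values of up to 0.111 for Cyp2b10 and 0.113 for Cyp2u1.
Cyp2s1 (chromosome 7, 25802475 to 25816913), an epithelial P450, had 8.64 ± 0.819 CPM in MPC and 11.2 ± 1.67 CPM in MPC-PTX (SD, n = 3 each), and its libraries overlapped. Its LFC of 0.37 (SE 0.14) had an adjusted p of 0.0963 in edgeR's test, and the antisense gene Gm26707 shares 260 bp of its exons. The 4 Cyp2a members, Cyp2g1 and Cyp2w1 were at 0 throughout, and the 9 Cyp2d members had at most 5 counts each over all libraries. Cyp2t4, with 40 counts, was the highest of the members under the filter, and they were split nearly evenly, 19 in MPC and 21 in MPC-PTX.

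The family 1 genes are the classical targets of AHR. Cyp1b1 (chromosome 17, 79701537 to 79715061), which oxidizes oestrogens and polycyclic hydrocarbons in many extrahepatic tissues, was the member with most counts in every library. It had 139, 169 and 230 CPM in MPC and 223, 229 and 232 CPM in MPC-PTX. MPC replicate 3 lay among the MPC-PTX libraries while the other 2 MPC libraries lay below them. Over all libraries the LFC of 0.35 (SE 0.17, adjusted p = 0.174 in edgeR's test) did not pass the test, and without MPC replicate 3 it was 0.51 (SE 0.08, adjusted p = 0.000938). It was 0.19 (adjusted p = 0.298) without MPC replicate 1 and 0.31 (adjusted p = 0.358) without MPC replicate 2, and it passed in 3 of 16 fits. MPC replicate 3 deviated from the other MPC libraries with transcript GC content (Spearman's rho -0.61) and length (rho 0.50), a description over 11155 genes that are no replicates of each other. Set against the other libraries of the line in the same way, MPC replicate 1 had rho 0.49 and -0.46. MPC replicate 2 had rho 0.38 and -0.22. With a correction for GC content and length, Cyp1b1 had an LFC of 0.25 (SE 0.09, adjusted p = 0.0528) over all libraries and of 0.30 (SE 0.06, adjusted p = 0.00141) without MPC replicate 3. Cyp1a1 had 2 counts and Cyp1a2 had 9 in all libraries together.
Ahr itself was at 48.9 ± 13.9 CPM in MPC and 48.3 ± 2.40 CPM in MPC-PTX (SD, n = 3 each; LFC -0.02, SE 0.19, adjusted p = 0.948 in edgeR's test). Tiparp, another AHR target, rose from 10.8 ± 3.60 to 22.6 ± 0.745 CPM (LFC 1.07, SE 0.21, adjusted p = 0.00938). Ahrr, the AHR repressor, had 4, 2 and 3 counts in MPC and 8, 13 and 11 in MPC-PTX and did not pass the filter.

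Of the 17 family 4 genes, 4 were tested, and the related pair Cyp4f13 and Cyp4f16 fell. Cyp4f enzymes inactivate leukotrienes and hydroxylate fatty acids. Cyp4f13 (chromosome 17, 32924688 to 32947402) had 13.9, 14.1 and 15.0 CPM in MPC and 8.20, 9.33 and 7.43 CPM in MPC-PTX, which was 1.72-fold lower (LFC -0.78, SE 0.12, adjusted p = 0.00272 in edgeR's test). Cyp4f16 (chromosome 17, 32536558 to 32551798) had 26.4, 26.7 and 25.2 CPM against 18.9, 18.9 and 15.1 CPM, 1.48-fold lower (LFC -0.56, SE 0.11, adjusted p = 0.00851). The lines did not overlap for either gene. Of the 50-base stretches of Cyp4f16, 16.3% also occurred in Cyp4f37, which was listed at 0 in every library. Cyp4b1 (chromosome 4, 115624725 to 115647723), which hydroxylates fatty acids and bioactivates foreign compounds, rose from 7.12, 4.90 and 4.04 CPM in MPC to 9.10, 8.43 and 8.38 CPM in MPC-PTX. Its LFC was 0.69 (SE 0.21, adjusted p = 0.0402 in edgeR's test), and the adjusted p was above 0.1 without any one MPC-PTX library or MPC replicate 2, up to 0.137. Cyp4v3, at 11.7 ± 0.597 and 12.4 ± 0.861 CPM (SD, n = 3 each), had an LFC of 0.08 (SE 0.10, adjusted p = 0.611) and turned negative, to -0.02, under the correction for GC content and length. The gene Gm45753, on the same strand, shares 313 bp of its exons. The 5 Cyp4a members had at most 3 counts each.

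Sterol and steroid metabolism holds 11 members, of which 3 were tested, and 2 of these rose, beside 14.1% of all tested genes that were higher. Of the 2, Cyp27a1 passed the filter through the MPC-PTX libraries alone and so had to be higher there.
Cyp27a1 (chromosome 1, 74713574 to 74737892) is the mitochondrial sterol 27-hydroxylase of bile acid synthesis. It had 0, 4 and 0 counts in the MPC libraries and 30, 23 and 22 in the MPC-PTX libraries. The lines did not overlap, at 0.0687 ± 0.119 CPM and 1.21 ± 0.149 CPM (SD, n = 3 each). The fitted LFC was 4.03 (SE 0.71, adjusted p = 0.0055 in edgeR's test), and the summed counts gave a ratio of 17.7 with a 95% interval from counting error of 6.64 to 66.8. Since MPC replicate 2 held all 4 MPC counts, the fitted value depends on that library and was 7.63 without it. Cyp39a1 (chromosome 17, 43667425 to 43751431), the oxysterol 7-alpha-hydroxylase that acts on 24-hydroxycholesterol, was far more abundant, with 29.7, 31.3 and 38.8 CPM in MPC and 46.3, 41.8 and 46.04 CPM in MPC-PTX. It was 1.34-fold higher (LFC 0.43, SE 0.12, adjusted p = 0.0304 in edgeR's test), and the adjusted p was between 0.0678 and 0.115 without any one MPC-PTX library or MPC replicate 2. Cyp21a1, the steroid 21-hydroxylase, had 7.02 ± 0.743 CPM in MPC and 6.41 ± 0.904 CPM in MPC-PTX (SD, n = 3 each) and overlapped between the lines (LFC -0.13, SE 0.15, adjusted p = 0.544), and the antisense pseudogene Tnxa shares 102 bp of its exons. The other genes of steroid hormone synthesis were silent or nearly so, with Cyp17a1, Cyp19a1, Cyp11b1 and Cyp11b2 at 0 and Cyp11a1 at 1 count in all libraries together. The bile acid gene Cyp8b1 was at 0 too, and Cyp7b1 had 2 counts.

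Retinoic acid is degraded by the Cyp26 enzymes. Cyp26b1 (chromosome 6, 84571414 to 84593908) fell from 30, 56 and 56 counts in MPC to 21, 20 and 12 in MPC-PTX, or from 2.39 ± 0.697 to 0.837 ± 0.108 CPM (SD, n = 3 each). The libraries did not overlap, and the gene was 2.82-fold lower (LFC -1.497, SE 0.29, adjusted p = 0.0084 in edgeR's test). Cyp26a1 had 7 counts in MPC and 1 in MPC-PTX, and Cyp26c1 had 1 in all. The retinoic acid receptor gene Rarb rose from 5.87 ± 1.21 to 8.76 ± 0.986 CPM (LFC 0.57, SE 0.17, adjusted p = 0.0436 in edgeR's test). Its relatives Rara (LFC -0.14, adjusted p = 0.422) and Rarg (LFC -0.14, adjusted p = 0.301) did not pass that test. A link of Rarb to Cyp26b1 was not tested.
In the vitamin D pathway, Cyp27b1 (chromosome 10, 127048250 to 127053006), the 1-alpha-hydroxylase that makes active vitamin D, had 5, 3 and 12 counts in MPC and 18, 24 and 15 in MPC-PTX. Every MPC-PTX library was above every MPC library in CPM, yet the LFC of 1.42 (SE 0.45) narrowly missed the threshold, with an adjusted p of 0.0506 in edgeR's test. It passed in 5 of 15 fits. Without MPC replicate 3 it was 2.04 (SE 0.50, adjusted p = 0.00646), without MPC replicate 2 it was 1.09 (adjusted p = 0.140) and without MPC-PTX replicate 2 it was 1.28 (adjusted p = 0.168). Its summed counts over all libraries gave a ratio of 2.70 with a 95% interval from 1.59 to 4.74. Cyp24a1, which degrades active vitamin D, had 2 counts in all, and the 25-hydroxylase Cyp2r1 was listed at 0.
Cyp20a1 (chromosome 1, 60343323 to 60388060), an orphan P450 with no established substrate, had 89.6, 93.4 and 83.7 CPM in MPC and 93.3, 92.7 and 90.7 CPM in MPC-PTX. The libraries overlapped, and the LFC was 0.05 (SE 0.07, adjusted p = 0.589 in edgeR's test), with a range of -0.089 to 0.092 over the other fits.

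Between genes, levels were compared per kilobase of annotated exon. Cyp20a1 and Cyp1b1 led in both lines. Cyp20a1 was at 38.9 ± 2.15 CPM per kb in MPC and 40.3 ± 0.603 in MPC-PTX, and Cyp1b1 at 30.7 ± 7.93 and 39.1 ± 0.864 (SD, n = 3 each), so that their order in MPC was within the spread of Cyp1b1. Cyp39a1 followed with 10.9 ± 1.59 CPM per kb in MPC and 14.6 ± 0.825 in MPC-PTX. Next in MPC came Cyp4f16 at 8.50 ± 0.249, Cyp3a13 at 7.33 ± 0.622 and Cyp2f2 at 5.65 ± 0.123 CPM per kb. In MPC-PTX, Cyp3a13 and Cyp2f2 were at 1.32 ± 0.0802 and 0.739 ± 0.0369 CPM per kb, below Cyp4b1, Cyp4v3, Cyp21a1 and Cyp2s1, which they had exceeded in MPC.
By count, Cyp1b1 and Cyp20a1 together made up 59.97% to 64.9% of the counts of the 93 members in the MPC libraries and 71.0% to 71.8% in the MPC-PTX libraries. The 93 members together stood at 429 ± 51.2 CPM in MPC and 448 ± 2.84 CPM in MPC-PTX (SD, n = 3 each), a difference within the spread of the MPC libraries. Without Cyp1b1 the sum was 250.2 ± 7.33 CPM in MPC and 219.9 ± 2.36 CPM in MPC-PTX. These sums and shares leave out Cyp51, the lanosterol demethylase of cholesterol synthesis, which is outside the rule and had 5070, 4560 and 4738 counts in MPC and 9642, 9164 and 7086 in MPC-PTX, more than Cyp1b1 in 5 of the 6 libraries.

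**Figure D4:**
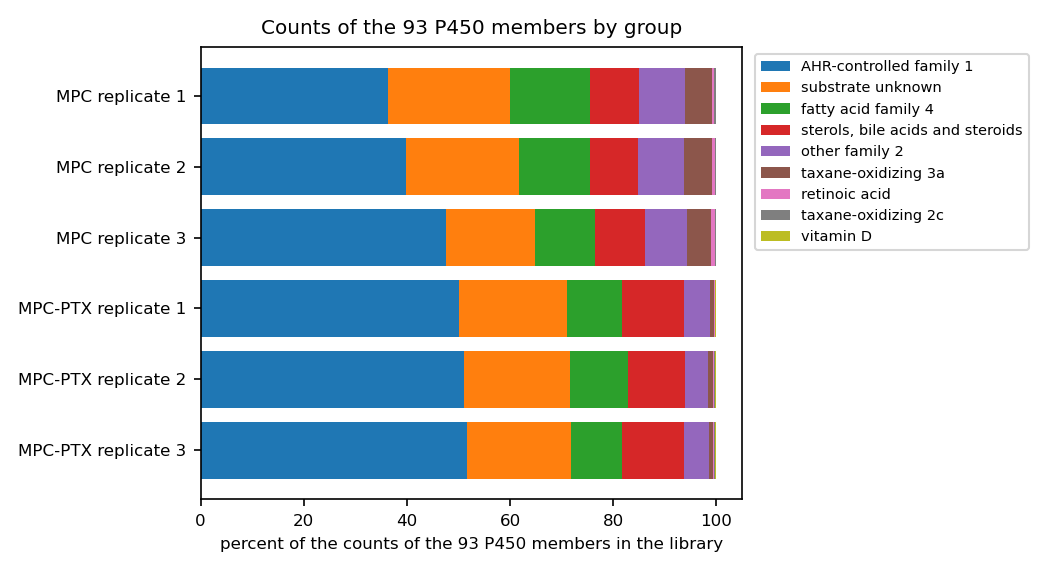
Share of the counts of the 93 members in each library held by each group of members, Cyp51 not included. The share of the Cyp3a genes goes from 4.74% to 5.31% in the MPC libraries to 0.836% to 0.923% in the MPC-PTX libraries, while that of family 1, nearly all Cyp1b1, is 36.4% to 47.6% in MPC and 50.05% to 51.7% in MPC-PTX.

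The changes of the members were also set beside those of the genes around them. Within 1 Mb of the start of Cyp2f2, 28 other genes were tested, with LFCs from -0.18 to 1.00 and a median of 0.13, all above the -2.93 of Cyp2f2. By the adjusted p of edgeR's test, 0 of the 28 were lower in MPC-PTX and 4 were higher, beside 15.6% and 14.1% of all tested genes. Around Cyp3a13, 42 genes had a median of 0.07, with 4 higher and 3 lower, against the same 14.1% and 15.6%. Among these 3 were Azgp1 (-2.30), the nearest of them, and Fam20c (-1.30). Cyp26b1 likewise lay below all 12 of its tested neighbours, whose median was 0.12. The 37 genes around Cyp27a1 had a median of 0.14 and lay below its 4.03, and among them the brush border gene Vil1 had the lowest value, -6.84. Cyp2j6 had 2 tested neighbours, with values of -0.30 and 0.82. Cyp4f13 and Cyp4f16 lie in the same stretch of chromosome 17, where the median of the 35 and 23 neighbours was 0.08 and 0.11. By contrast, 9 of 22 genes around Cyp4b1 were higher in MPC-PTX, against 14.1% of all tested genes, and 1 was lower. Their median was 0.33, beside 0.69 for Cyp4b1.

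**Figure D5:**
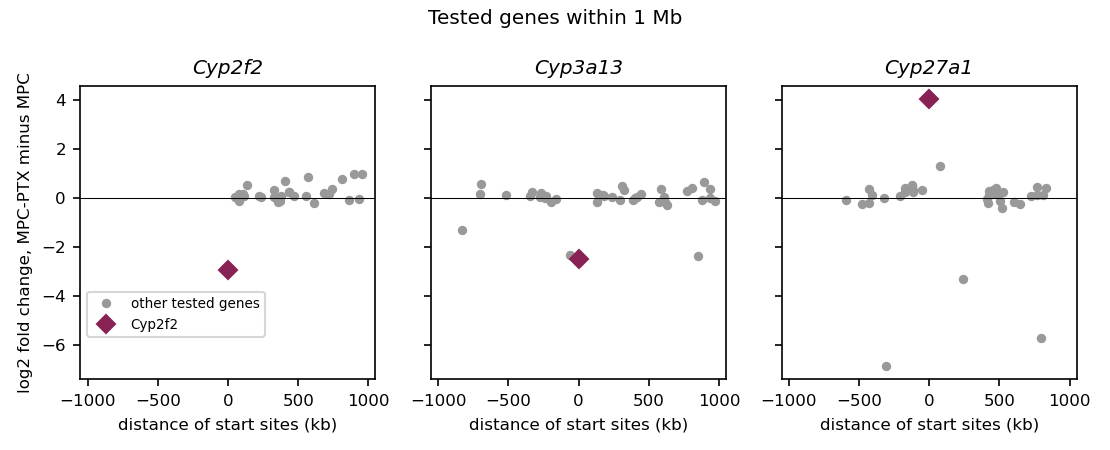
LFC, MPC-PTX minus MPC, of the tested genes within 1 Mb of Cyp2f2, Cyp3a13 and Cyp27a1, against the distance between start sites in kb (positive in the direction of transcription). The diamond at 0 kb is the P450 gene. Cyp2f2 and Cyp3a13 lie below all their neighbours and Cyp27a1 above all of its own.

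The genes that serve P450 enzymes were listed by role. Of 9 tested electron donors and membrane partners, 3 were higher and 2 lower in MPC-PTX by the adjusted p of edgeR's test, beside 14.1% and 15.6% of all tested genes. Por was abundant, at 943 ± 108 CPM in MPC and 967 ± 1.90 CPM in MPC-PTX (SD, n = 3 each; LFC 0.04, SE 0.09, adjusted p = 0.783). Cyb5a, the microsomal cytochrome b5 that passes electrons to several P450 enzymes, fell from 106 ± 7.58 to 66.5 ± 2.92 CPM (LFC -0.67, SE 0.08, adjusted p = 0.00101). Cyb5b, its mitochondrial counterpart, was more abundant and rose (LFC 0.47, SE 0.07, adjusted p = 0.00249). Fdxr, the mitochondrial donor, rose from 5.90 ± 1.56 to 9.76 ± 0.888 CPM (LFC 0.73, SE 0.20, adjusted p = 0.0326). Fdx1, which it reduces, had an LFC of -0.47 (SE 0.09, adjusted p = 0.00758). Of 12 tested genes of heme synthesis and breakdown, 4 were higher and 0 lower, against the same 14.1% and 15.6%, with LFCs of at most 0.42 among the 4 (Blvrb, Fech, Hmox1 and Urod), and Alas1, the rate-limiting enzyme, had one of -0.05 (adjusted p = 0.778).
Among 26 regulators of P450 genes, 18 were tested, 3 were higher and 3 lower, which is near the 14.1% and 15.6% of all tested genes. The nuclear receptors PXR (Nr1i2) and CAR (Nr1i3), which respond to foreign compounds, were all but absent. Nr1i2 had 0, 1 and 2 counts in MPC and 0 in MPC-PTX, and Nr1i3 was listed at 0 in every library. Ahr, given above, was expressed in both lines. Hnf4a, a factor of liver and gut epithelium that many P450 genes depend on in liver, had 927, 1442 and 1524 counts in MPC and 24, 19 and 16 in MPC-PTX. It fell from 65.6 ± 14.2 to 0.944 ± 0.0845 CPM (SD, n = 3 each; LFC -6.11, SE 0.23, adjusted p = 9.23e-06 in edgeR's test). Pparg fell as well (LFC -0.67, SE 0.16, adjusted p = 0.0168), whereas Cebpb rose (0.88, SE 0.21, adjusted p = 0.0201). The part of these regulators in the changes of the P450 members was not tested.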

How the data were processed

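RNA of MPC and MPC-PTX was sequenced as 3 poly-A selected libraries per line, all given batch 1 in the labels. The authors cleaned the reads with fastp (0.22.0), used HISAT2 for mapping and deposited raw read counts per gene, not normalized and not pooled. The genome release, annotation, counting tool, use of strand and treatment of multi-mapped reads are not given in the sources used here. The 6 sample tables held the values of the series table.
Of the genes, 51 carry an ID without a name and hold at most 0.0297% of a library. From the deposited counts, 11795 genes passed filterByExpr (minimum count 10) and were tested by edgeR 4.0.16 under R 4.3.3 (TMM scaling, robust glmQLFit, glmQLFTest) with Benjamini-Hochberg adjustment. The standard error is the log2 fold change divided by the square root of the F statistic. CPM use the TMM-scaled library size. Genes named were members with an adjusted p below 0.05, Cyp2c and Cyp3a members with at least 10 counts, the 8 members with the highest CPM, members at 0 in 1 line with at least 10 counts in the other (none) and genes of the partner lists that passed the test with a log2 fold change beyond 0.5, plus Por, Nr1i2, Nr1i3 and Ahr. Others were named after their values were seen. Members and lists were chosen with earlier results of these data known. Positions, exon lengths and shared 50-base stretches came from GENCODE M21 (GRCm38), matched for 92 of 93 members, and promoters from RefSeq (GRCm38.p6). The exact binomial (Clopper-Pearson) intervals and the floor of 3 counts cover counting error only, since reads are not independent molecules. On simulated counts with 200 genes changed by 1.5 on the log2 scale between the lines, edgeR (11692 genes run) recovered 97.5% of them, with 2.0% false calls, and DESeq2 99.0%, with 10.8%. The changed genes were drawn only from genes above a floor of mean CPM. Genes were simulated independently, with the same spread in both lines. These rates thus do not carry over to members with few counts or to the unequal spread of the lines. Alternatives were DESeq2 1.42.0, other scalings and filters, a replicate block, each library left out, and a loess correction (span 0.3) for GC content and length.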

Additional observations from a re-analysis of the deposited data

How the results depend on the processing

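The count of lower members was 6 in the reported test and in every other fit, and 4 by the rule of the methods in every fit. The count of higher members, 5 by adjusted p, ranged from 1 to 7 when 1 library was left out (1 without MPC replicate 2 or any one MPC-PTX library, 7 without MPC replicate 3) and was 2 with a filter of 10 counts in each library. The last filter also left 0 of the 4 members that were higher by the rule of the methods, because it removes genes with few counts in MPC, and leaving out a library gave 3 to 4. Summed over the members that passed the filter alone, the Cyp2c level was 0.658 CPM in MPC and 0.452 CPM in MPC-PTX. The sign changed for 2 members with small differences. Cyp20a1 had a log2 fold change of -0.041 to 0.089 when 1 library was left out, the lowest without MPC replicate 3, and of -0.089 with the correction for GC content and length as well. Cyp4v3 had -0.021 under that correction, -0.022 with the replicate block added and -0.18 with the correction and without MPC replicate 3. The correction without MPC replicate 3 was chosen after seeing the data. The replicate numbers showed no clear pairing of the samples. Correlations of same-numbered deviations were 0.15, -0.02 and 0.17, and not every library correlated best with its own number. This check cannot exclude a pairing, since the deviations of the few libraries of a line are not independent. With the replicate block, 4 members were higher and 6 lower, and Cyp2b10 had an adjusted p of 0.0506 in edgeR's test. With the block and the correction together, Cyp1b1 passed (0.26, adjusted p = 0.0255). Members under the filter had at most 11 counts in any library, and in them a difference was not detectable at this depth.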
